A study of Sus scrofa with 12 samples.

Results

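The comparison set SB431542-treated *NANOG* tdTomato knock-in PC-iPS cells against WT PC-iPS cells, and its members were the 3 SB431542 libraries and the 3 WT libraries, 6 of the 12 RNA-seq libraries of the series. They were chosen by their labels. PC-iPS cells are pig induced pluripotent stem cells derived from pericytes, the mural cells of small vessels, and the donor stage is labelled adult. The study worked with 3 separately kept knock-in lines, and the untreated knock-in libraries bear their names, nanog1, nanog2 and nanog3, while the titles of the treated libraries give a number alone. The treated cells carry a 3×FLAG-P2A-tdTomato cassette behind *NANOG* and were kept as transfected cultures, not as clones, after puromycin and blasticidin selection and a sort for tdTomato. WT cells had no cassette, no selection and no inhibitor. According to the methods, WT cells were grown in LCDMV medium, which contains LIF, CHIR99021, dimethindene, minocycline and vitamin C, while treatments were made in the same medium without LIF. Untreated knock-in cells and Activin A-treated knock-in cells, with 3 libraries each, are given below only as values beside the comparison.

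The WT libraries were deposited in a table with the untreated knock-in libraries, and the SB431542 libraries in a separate table with the Activin A libraries. FPKM, the fragments of a gene divided by its length and by the size of the library, is scaled library by library, so the tables could be joined by Ensembl identifier, but the table, the knock-in with its selection and sort, the inhibitor and the medium all separate the same 6 libraries and cannot be told apart. *NANOG* was known to be similar in both groups when the comparison was chosen. Its part in the other differences was not tested. Nothing in the sources used here says whether the 3 WT libraries came from separate cultures, so their spread may be partly technical.

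Activin A and related TGF-β ligands bind a type II receptor, which activates a type I receptor kinase, which in turn phosphorylates SMAD2 and SMAD3. These join SMAD4 and act on genes such as *LEFTY2*, *SMAD7* and, in human pluripotent cells, *NANOG*. SB431542 blocks the type I receptor kinases of the Activin and TGF-β branch and spares those of the BMP branch, which signals through other SMAD proteins to the *ID* genes. The guide used to open *NANOG* for the cassette is shown because it defines the knock-in that was compared. It is printed 5′ to 3′, with the PAM, the motif that Cas9 needs beside its target, in capitals.

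NANOG guide with PAM: atcttcaggctgtatgttcaTGG

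According to the study the target is the same at both pig *NANOG* loci. RefSeq places these at chr1:169064134-169065292 and chr5:62931642-62939086 of Sscrofa11.1. The tables hold 1 identifier for *NANOG*, ENSSSCG00000040403, without saying which locus it stands for, so reads of the 2 copies may have been shared or split.

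The WT libraries were shallower and richer in mitochondrial transcripts than the SB431542 libraries. Total depth is unknown because the tables hold FPKM. Depth relative to WT library 1, read from the commonest ratio between low values, was 0.914 to 1.02 in WT and 1.35 to 1.53 with SB431542. The 13 protein-coding mitochondrial genes took 13.9% to 16.4% of all FPKM in WT and 9.43% to 11.5% with SB431542. Pearson's r of log2(FPKM + 1) across genes, which are not independent replicates, was 0.976 to 0.979 between WT libraries, 0.981 to 0.987 between SB431542 libraries and 0.941 to 0.973 between the groups. Of 8 markers of pluripotent cells, 4 (*SOX2*, *LIN28A*, *SALL4* and *NANOG*) reached 1 FPKM, *TDGF1* and *DPPA5* stayed under 1 FPKM in all 6 libraries, and *POU5F1* and *L1TD1* matched no identifier by symbol.

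SB431542-treated knock-in cells had more RNA than WT cells of 11 of 16 tested contractile genes, 8 of 18 focal adhesion genes, 9 of 16 immediate-early genes and *LIN28A*, and less RNA of *MAB21L2*, *PPP2R2C* and the Notch ligands *DLL1* and *DLL3*. The gene lists were compiled with earlier results of these data known, so their counts are descriptions and do not test for enrichment. Of 14072 genes tested, 258 were higher (1.83%) and 134 were lower (0.952%) by limma, with a log2 difference of 1 or more in size and an adjusted p no higher than 0.05, together 2.79%. All 392 called genes had groups that did not overlap, which held for 34.7% of the tested genes. The median difference over all tested genes was 0.002 on the log2 scale. The 5 largest rises were those of *KRT8*, *TIMP3*, *TAGLN*, *THBS1* and *F3*, and the 5 largest falls those of *MAB21L2*, *PPP2R2C*, *CBLN1*, *TOX* and *CPLX2*. Leaving out 1 library at a time moved these counts: between 140 and 292 genes were higher and between 47 and 160 lower, and 107 of the higher and 33 of the lower genes were called whichever library was left out. The fewest calls came without SB431542 library 1. In bulk RNA, fewer cells of a type and less RNA per cell cannot be told apart.

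**Figure D1:**
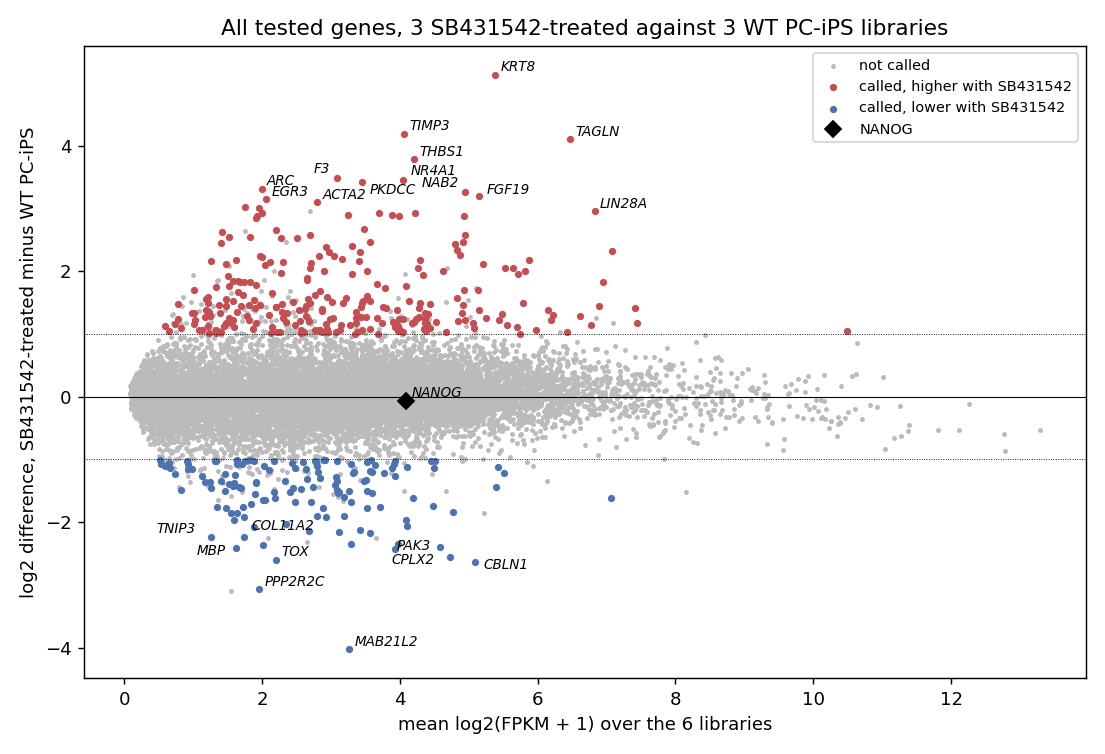
Each point is 1 of the 14072 tested genes, with its mean log2(FPKM + 1) over the 6 libraries on the x axis and the log2 difference between the means of the 3 SB431542-treated and 3 WT PC-iPS libraries on the y axis. Red points are the 258 genes called higher and blue points the 134 called lower, dotted lines mark a difference of 1, and *NANOG* (black diamond) lies at -0.07.

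*NANOG*, the homeobox factor of the pluripotency network, was at similar mean RNA levels in the 2 groups. Protein was not measured here. In the study, staining found no NANOG protein with SB431542 and heterogeneous NANOG in WT cells. WT libraries had 9.71, 16.4 and 27.6 FPKM and SB431542 libraries 11.8, 27.2 and 11.8 FPKM. The ranges overlapped almost completely, with 27.6 FPKM in the highest WT library and 27.2 FPKM in the highest treated one. The difference was -0.07 on the log2 scale. No test is given, because the comparison was chosen with this likeness known. Beside these, untreated knock-in libraries had 52.03, 101 and 70.3 FPKM and Activin A libraries 109, 195 and 157 FPKM.

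*LIN28A*, an RNA-binding protein that blocks maturation of let-7 microRNAs, was far apart in the 2 groups (chr6:83806178-83818550). It was at 32.8, 47.6 and 40.1 FPKM in WT and at 327, 498 and 192 FPKM with SB431542. Every treated library lay above every WT library, and the second was the highest. The rise was 2.96 ± 0.32 (SE) on the log2 scale (limma adjusted p = 0.00516) and was called in all 6 leave-one-out fits. Untreated knock-in libraries had 163, 285 and 108 FPKM and Activin A libraries 90.0, 200.04 and 67.5 FPKM, in both cases with library 2 the highest and library 3 the lowest, the same order as with SB431542.

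Of 12 tested genes of a list of 28 pluripotency genes, 2 were called higher, *LIN28A* and *KLF2*, and 0 lower, with a median log2 difference of 0.40. *KLF2*, a Krüppel-like factor of naive mouse cells, was at 0, 0.0542 and 0.0460 FPKM in WT and 1.41, 2.26 and 2.06 FPKM with SB431542, a low level in both groups (log2 difference 1.48 ± 0.14, adjusted p = 0.00299). *KLF6*, another family member named in the study, rose from 2.91, 3.77 and 4.98 FPKM to 22.2, 24.3 and 22.2 FPKM, with a log2 difference of 2.31 ± 0.17. *SOX2*, the partner of OCT4, was at 45.2, 39.1 and 45.7 FPKM in WT and 68.8, 68.0 and 71.5 FPKM with SB431542. These groups did not overlap and the adjusted p was 0.0131, but the difference of 0.67 was below the fold threshold. According to the study, PC-iPS cells were made with the factors OCT4, SOX2, KLF4 and c-Myc. FPKM of *SOX2*, *KLF4* and *MYC* may therefore include reads of introduced copies, which was not tested. *KLF4* (83.7, 53.7 and 84.8 FPKM in WT; 70.2, 65.4 and 82.0 FPKM with SB431542) and *OTX2*, a homeobox factor of the epiblast and forebrain (68.7, 74.6 and 93.8 and 61.8, 58.8 and 70.6 FPKM), overlapped between the groups. *KLF5*, at 0.551, 1.49 and 2.97 FPKM in WT and 2.13, 8.92 and 4.30 FPKM with SB431542, overlapped too (adjusted p = 0.164). *TFCP2L1*, a naive-state factor, stayed at or under 0.0204 FPKM in all 6 libraries and was not tested.

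**Figure D2:**
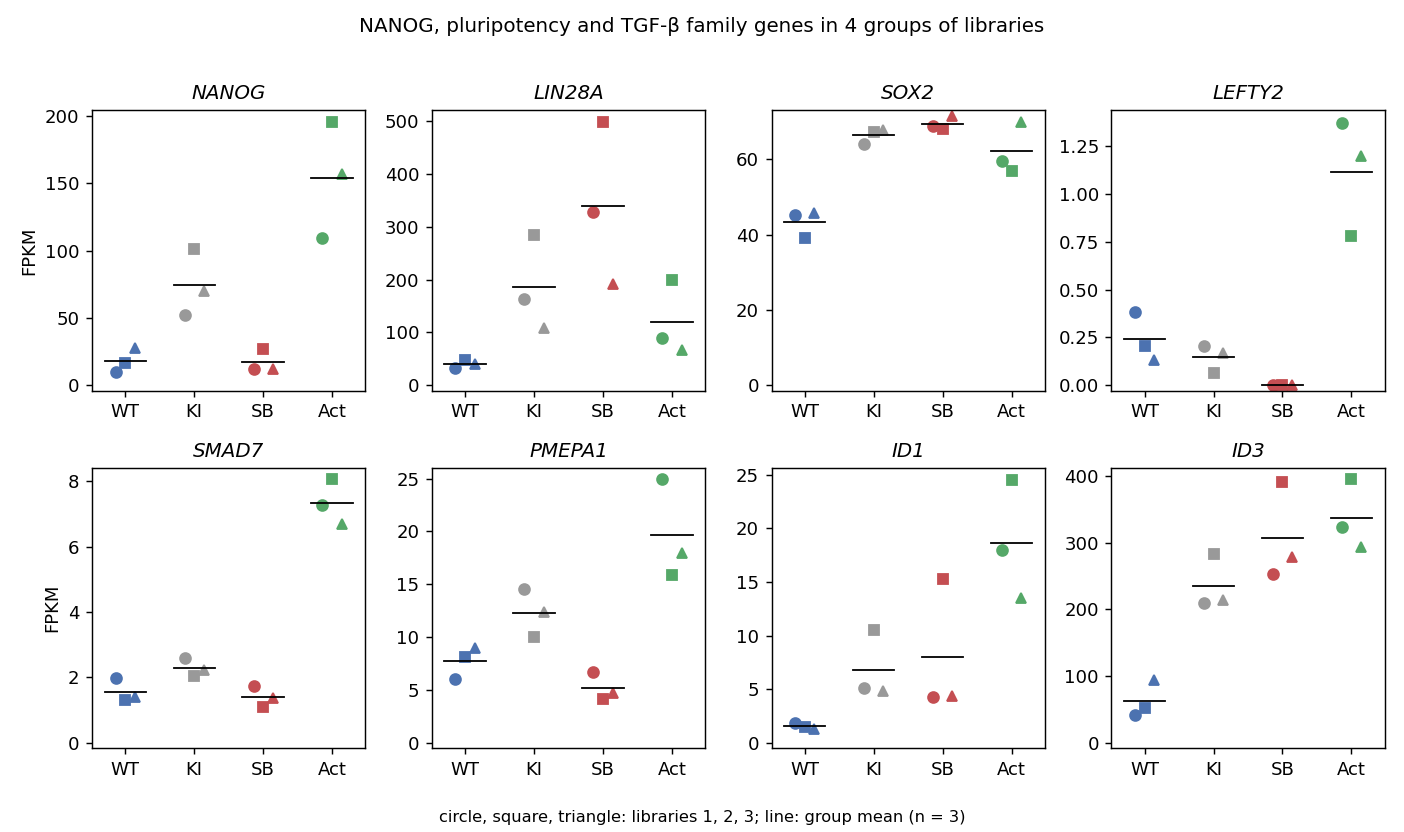
FPKM of 8 genes in WT PC-iPS (WT), untreated knock-in (KI), SB431542-treated (SB) and Activin A-treated (Act) libraries, 3 each, with the group mean as a line and a y axis from 0 for each gene. *NANOG* in SB libraries falls back on the WT range of 9.71 to 27.6 FPKM while *LIN28A*, *SOX2* and *ID3* stay above WT.

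Feedback inhibitors of the blocked pathway were not called at a pseudocount of 1. *LEFTY2*, a secreted inhibitor of Nodal that SMAD2/3 induces, was at 0.381, 0.208 and 0.132 FPKM in WT and listed at 0 in all 3 SB431542 libraries. The groups did not overlap, although all values were low (log2 difference -0.31, adjusted p = 0.0916). This depended on the pseudocount, and with 0.1 or 0.01 added in place of 1 *LEFTY2* was called lower (adjusted p = 0.0423 and 0.0333). *SMAD7*, the inhibitory SMAD of the feedback loop, was at 1.99, 1.32 and 1.40 FPKM in WT and 1.75, 1.11 and 1.37 FPKM with SB431542. These ranges overlapped, and the difference was -0.09 with a 95% interval from -0.47 to 0.28. *PMEPA1*, a further feedback inhibitor, was at 6.04, 8.16 and 8.94 and 6.66, 4.11 and 4.70 FPKM, and again the groups overlapped. *LDLRAD4*, which holds back SMAD2/3 activation, was at 0.993, 0.405 and 0.736 FPKM in WT and 0.364, 0.225 and 0.304 FPKM with SB431542, low in both groups and without overlap (log2 difference -0.39, adjusted p = 0.132). Untreated knock-in libraries had 2.59, 2.03 and 2.24 FPKM of *SMAD7* and 14.6, 9.99 and 12.3 FPKM of *PMEPA1*, and Activin A libraries 7.28, 8.07 and 6.67 and 25.0, 15.9 and 17.9 FPKM.

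Among 13 tested targets of SMAD2/3, 1 was called higher and 0 lower, with a median log2 difference of 0.64. With a pseudocount of 0.1, 2 were called higher and 1, *LEFTY2*, lower, with 0.01 the counts were 3 and 1, with TPM 2 were called higher, and with no filter on low values 0. The called gene was *TGIF1*, a homeobox co-repressor of SMAD2/3, which was at 23.1, 30.7 and 29.4 FPKM in WT and 45.9, 86.8 and 70.9 FPKM with SB431542 (log2 difference 1.23 ± 0.23, adjusted p = 0.028). *TGIF1* was not called without SB431542 library 2 or 3 or WT library 1 or 2 (adjusted p = 0.0605 to 0.0908). *SKI*, a co-repressor of the same complexes, was at 14.2, 15.1 and 21.5 FPKM in WT and 26.5, 26.8 and 26.8 FPKM with SB431542, without overlap, but its adjusted p was 0.0519. The related *SKIL* was at 10.9, 16.6 and 13.6 and 15.6, 15.9 and 15.2 FPKM, with overlap. Of 11 tested receptors and SMADs, 0 were called in either direction and the median difference was 0.07. *TGFBR1*, a target kinase of SB431542, was at 32.03, 37.5 and 35.7 FPKM in WT and 34.6, 23.4 and 33.4 FPKM with SB431542. *ACVR2B*, a type II Activin receptor, was at 13.4, 17.3 and 18.8 and 21.1, 16.9 and 20.9 FPKM, *SMAD3* at 19.02, 21.9 and 27.999 and 31.4, 24.6 and 29.5 FPKM, and *SMAD4* at 18.97, 35.004 and 25.1 and 22.9, 24.8 and 24.8 FPKM. All 4 overlapped between the groups.

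Of 15 tested genes of the BMP branch, 2 were called higher, *ID3* and *NOG*, and 0 lower, with a median log2 difference of 0.74, and the groups did not overlap in 8 of them, against 34.7% of all tested genes. *ID3*, an inhibitor of bHLH factors, was at 41.8, 52.8 and 93.9 FPKM in WT and 253, 391 and 278 FPKM with SB431542. The lowest treated library was above the highest WT library, and the rise was 2.33 ± 0.30 (adjusted p = 0.00909; called in all 6 leave-one-out fits). *NOG*, which encodes the BMP antagonist Noggin, was at 1.59, 1.47 and 2.45 FPKM in WT and 4.29, 9.04 and 7.07 FPKM with SB431542 (adjusted p = 0.0256). *NOG* was not called without SB431542 library 2 or 3 or WT library 1 or 2 (adjusted p = 0.0584 to 0.0853). *ID1* was at 1.87, 1.46 and 1.28 FPKM in WT and 4.31, 15.3 and 4.34 FPKM with SB431542, so library 2 stood well above the other two, and its adjusted p was 0.061. Without SB431542 library 2, *ID1* (adjusted p = 0.0407) and *MSX2*, a homeobox factor (adjusted p = 0.0126), were called higher. *GREM1*, a further BMP antagonist, had a like pattern, with 0.163, 0 and 0.109 FPKM in WT, 1.12, 4.97 and 1.06 FPKM with SB431542 and an adjusted p of 0.0638. Knock-in libraries without the inhibitor had 209.69, 283.74 and 213.61 FPKM of *ID3* and 3.6685, 5.6854 and 8.4325 FPKM of *NOG*. They had 5.1326, 10.483 and 4.8592 FPKM of *ID1* and 1.1612, 3.1422 and 0.84138 FPKM of *GREM1*. For each of these genes the untreated values were above every WT value and overlapped with those of SB431542. Whether the inhibitor had a part in these rises was not tested. *ID2* (12.5, 29.5 and 18.7 and 20.3, 41.99 and 17.8 FPKM), *ID4* (11.13, 16.99 and 10.2 and 8.58, 23.7 and 13.8 FPKM) and the pseudoreceptor *BAMBI* (9.49, 10.1 and 13.4 and 8.49, 15.0000 and 17.3 FPKM) overlapped between WT and SB431542. With a pseudocount of 0.1 in place of 1, 6 members were called, and with all 12 libraries in the fit 5. The count fell to 1 with no filter on low values and without WT library 1, WT library 2 or SB431542 library 3.

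Of 17 tested ligands and antagonists of the family, *NOG* alone was called, and with a pseudocount of 0.1 or all 12 libraries in the fit *GREM1* as well. With no filter, or without WT library 1 or 2 or SB431542 library 2 or 3, 0 were called higher. *FST*, which binds Activin and keeps it from its receptor, was at 25.6, 33.6 and 47.8 FPKM in WT and 59.8, 30.7 and 47.1 FPKM with SB431542, and *FSTL1* at 239, 230.3 and 323 and 244, 296 and 255 FPKM. Both overlapped. *GDF11*, an Activin-like ligand, was lower in each treated library (7.71, 5.71 and 13.5 FPKM against 14.5, 15.1 and 15.7 FPKM in WT), with an adjusted p of 0.114. Without SB431542 library 3 it was called lower (log2 difference -1.07, adjusted p = 0.0246).

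Of 16 tested contractile genes under serum response factor, 11 were called higher and 0 lower, against 1.83% called higher among all tested genes, and their median log2 difference was 1.45. The share over all genes is given for scale alone, because the list was compiled with earlier results of these data known. *TAGLN*, which encodes the actin-bundling protein transgelin of smooth muscle, was at 15.2, 26.6 and 21.04 FPKM in WT and 413, 410.0 and 296 FPKM with SB431542 (chr9:44561756-44567385). No treated library came near the WT range, the group means differed by a ratio of 17.8, and the log2 difference was 4.11 ± 0.21 (adjusted p = 0.000555). *ACTA2*, smooth muscle α-actin, was at 1.73, 1.25 and 1.17 FPKM in WT and 20.6, 18.7 and 18.9 FPKM with SB431542 (chr14:100868145-100886732). The 3 treated libraries were closely grouped, at a mean 13.998 times that of WT. *CNN1*, the calponin of differentiated smooth muscle, was at 0.873, 0.877 and 0.760 FPKM in WT and 10.7, 12.9 and 8.65 FPKM with SB431542 (log2 difference 2.66). *MYL9*, the regulatory light chain of non-sarcomeric myosin, was at 9.87, 13.1 and 14.6 and 62.8, 66.7 and 60.1 FPKM (log2 difference 2.26).

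*SRF*, the transcription factor that gives the list its name, rose itself, from 23.7, 22.6 and 24.6 FPKM in WT to 98.1, 88.4 and 119 FPKM with SB431542, with a log2 difference of 2.05 ± 0.12 (adjusted p = 0.00072). *LMOD1*, an actin filament nucleator, was at 0.116, 0.152 and 0.123 FPKM in WT and 4.17, 2.58 and 6.14 FPKM with SB431542. The tropomyosins *TPM1* (19.4, 32.4 and 26.9 FPKM in WT; 127, 102 and 83.9 FPKM with SB431542), *TPM2* (1.16, 1.15 and 1.29; 3.69, 5.65 and 3.96 FPKM) and *TPM4* (49.2, 69.7 and 59.8; 122, 126 and 118 FPKM) all rose, with log2 differences of 1.96, 1.29 and 1.04. *MYH9*, a non-muscle myosin heavy chain, and *CNN2*, a calponin of many tissues, rose by 1.33 and 1.57. *CNN3*, the most abundant calponin here, was at 163, 168 and 169 FPKM in WT and 252, 236 and 213 FPKM with SB431542, below the fold threshold. *ACTG2*, the smooth muscle γ-actin, was at 23.8, 17.3 and 47.3 FPKM in WT and 12.5, 13.2 and 33.8 FPKM with SB431542, a log2 difference of -0.57, and *CALD1*, caldesmon, at 14.1, 19.9 and 26.1 and 27.9, 31.7 and 25.1 FPKM, both with overlap. *DES* had a log2 difference of -0.38 and overlapped too. In untreated knock-in libraries *TAGLN* was at 457, 453 and 299 FPKM, *ACTA2* at 17.5, 12.2 and 11.4 FPKM and *SRF* at 103, 96.5 and 122 FPKM. For *TAGLN* and *SRF* these ranges overlapped with those of SB431542, and for *ACTA2* every SB431542 library was above every untreated one. Of the 11 called genes, 10 were called in all 6 leave-one-out fits, while the difference of *TPM4* was 0.91 without WT library 1.

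**Figure D3:**
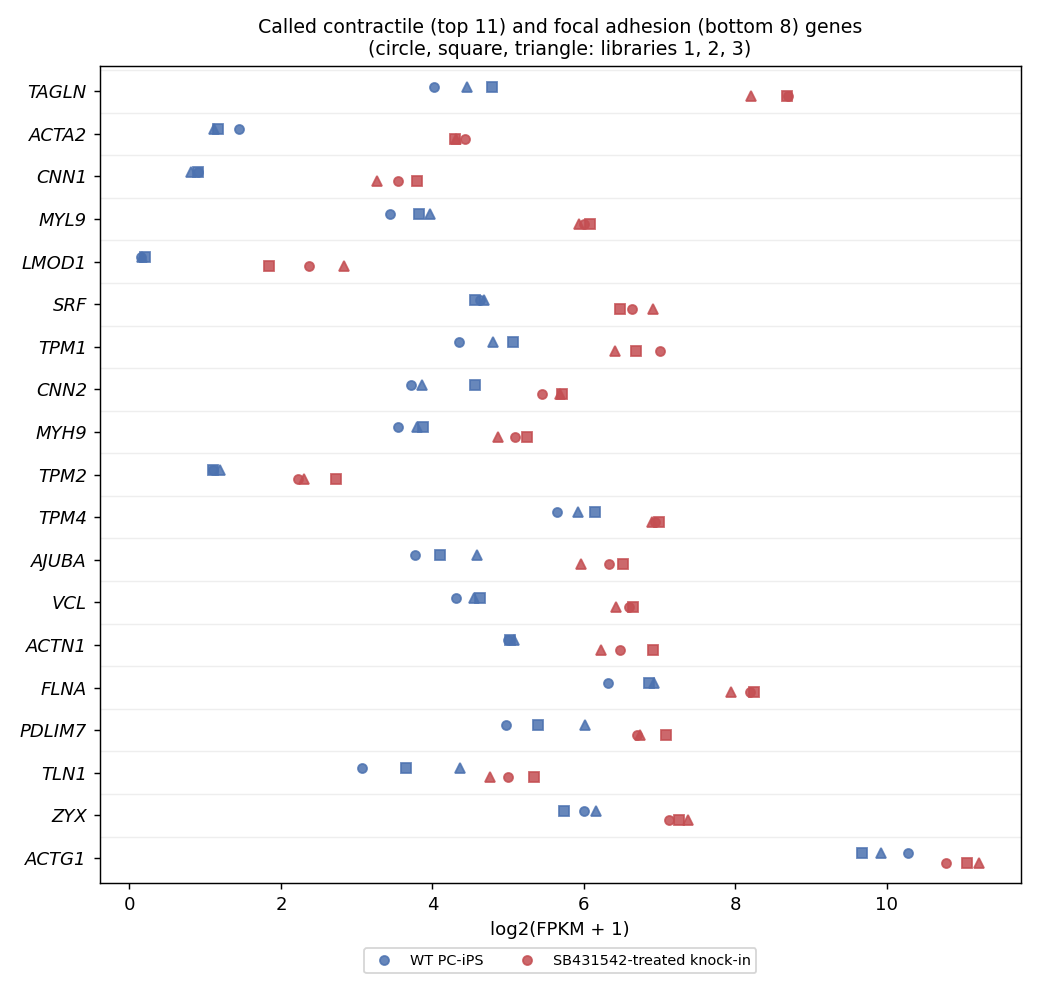
log2(FPKM + 1) of the 11 called contractile genes and the 8 called focal adhesion genes in the 3 WT PC-iPS (blue) and 3 SB431542-treated (red) libraries, with a marker shape for each library number. In all 19 genes the treated libraries lie to the right of the WT libraries, with the widest gap in *TAGLN*.

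Of 18 tested focal adhesion and actin cross-linking genes, 8 were called higher and 0 lower, and the median log2 difference was 0.87. *VCL*, which encodes vinculin, the link between talin and actin, was at 18.8, 23.8 and 22.4 FPKM in WT and 96.0, 99.2 and 84.7 FPKM with SB431542 (log2 difference 2.06 ± 0.12, adjusted p = 0.000684). Untreated knock-in libraries had 67.9, 73.2 and 52.97 FPKM and Activin A libraries 38.9, 36.9 and 26.1 FPKM, so *VCL* was highest with SB431542. *AJUBA*, a LIM protein of adhesions that also binds the Hippo kinase LATS, was at 12.6, 16.2 and 23.1 FPKM in WT and 79.2, 90.3 and 61.1 FPKM with SB431542 (log2 difference 2.11). *ACTN1*, α-actinin, was at 31.0, 31.5 and 32.9 and 87.8, 119 and 74.1 FPKM and *FLNA*, filamin A, at 78.7, 116 and 121 and 291, 303 and 245 FPKM. The zyxin gene *ZYX* (63.4, 52.5 and 70.3; 139, 152 and 166 FPKM), *PDLIM7* (30.5, 41.0 and 63.6; 103, 135 and 106 FPKM), the talin gene *TLN1* (7.39, 11.6 and 19.6; 31.1, 39.4 and 26.1 FPKM) and the cytoplasmic actin *ACTG1* (1242, 819 and 971; 1760.3, 2123 and 2372 FPKM) completed the called members. *PDLIM7* was not called without SB431542 library 1 or 2 or WT library 1 or 2, *TLN1* without SB431542 library 1, 2 or 3 or WT library 1 or 2, and *ACTG1* without SB431542 library 1, 2 or 3 or WT library 2 (adjusted p = 0.0512 to 0.139). With no filter on low values 5 members were called. *ACTB* was at 1198, 1061 and 1306 FPKM in WT and 2064, 2128 and 2243 FPKM with SB431542, with an adjusted p of 0.0127 and a difference of 0.86, below the fold threshold.

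Markers of pericytes and fibroblasts were examined because *ACTA2* and *TAGLN* are also expressed by these cells. The summed FPKM of 10 pericyte markers was 30.04 to 33.2 in WT and 62.9 to 65.2 with SB431542. Without *ACTA2*, which prompted the check, the sums of the other 9 were 28.3 to 32.1 in WT and 42.2 to 46.4 with SB431542. Only *ACTA2* and *PDGFRB*, the receptor for PDGF-BB that mural cells carry, were called (2 of 10 tested). *PDGFRB* was at 1.99, 1.75 and 3.23 FPKM in WT and 10.98, 15.3 and 8.17 FPKM with SB431542 (log2 difference 1.90 ± 0.26, adjusted p = 0.0103). *ANPEP*, an aminopeptidase, was at 0.373, 2.10 and 1.33 FPKM in WT and 3.02, 4.06 and 4.97 FPKM with SB431542 (adjusted p = 0.0578), and *ABCC9*, a potassium channel subunit, at 0.151, 0.184 and 0.390 and 0.460, 0.897 and 1.03 FPKM (adjusted p = 0.0763), neither with overlap. With all 12 libraries in the fit 3 members were called. *CSPG4*, *RGS5* and *DES*, which define mural cells, were under 1 FPKM in all 6 libraries, while *MCAM* (12.5, 11.8 and 8.93 and 15.3, 11.101 and 15.4 FPKM) and *NOTCH3* (11.08, 12.7 and 16.7 and 11.2, 13.3 and 14.9 FPKM) overlapped between WT and SB431542. The summed FPKM of 12 fibroblast and feeder markers was 255 to 322 in WT and 477 to 572 with SB431542, most of it *VIM*. Without *VIM*, the intermediate filament gene that many cultured cells express, the sums were 34.6 to 45.2 in WT and 47.7 to 52.4 with SB431542. Single members went both ways, with 4 of the 9 tested higher and 5 lower on average and a median log2 difference of -0.051. None of the 9 tested feeder markers was called in the main fit. With TPM 1 was called higher, and *VIM* was called higher without WT library 1 or SB431542 library 2 (adjusted p = 0.0244 and 0.0276). *FAP* was listed at 0 in all 6 libraries, and *LUM* and *POSTN* stayed under 1 FPKM. *VIM* itself, at 283, 249 and 210.1 FPKM in WT and 522, 429 and 511 FPKM with SB431542, differed by 0.98 with an adjusted p of 0.0121. Of 8 endothelial and blood markers, 3 were tested and 0 called, and the 8 summed to 0.447 to 0.797 in WT and 1.09 to 1.61 with SB431542.

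Secreted matrix regulators held some of the largest rises. *TIMP3*, an inhibitor of matrix metalloproteinases that stays bound to the matrix, was at 2.98, 3.02 and 2.71 FPKM in WT and 71.5, 63.8 and 77.2 FPKM with SB431542 (chr5:12185816-12242599). The 3 treated libraries were close together, and the log2 difference was 4.20 ± 0.12 (adjusted p = 1.47e-05). *THBS1*, thrombospondin 1, which can release TGF-β from its latent form, was at 4.57, 4.04 and 3.39 FPKM in WT and 59.8, 110.2 and 47.0 FPKM with SB431542 (log2 difference 3.79). *CCN1*, a matricellular target of YAP, was at 15.8, 4.16 and 2.54 FPKM in WT and 59.4, 62.9 and 34.0 FPKM with SB431542, so WT library 1 was higher than the other two WT libraries. *TNC*, tenascin C, was at 2.54, 3.03 and 7.96 and 33.3, 34.2 and 16.7 FPKM. Of 12 tested members of this list, these 4 were called higher and 0 lower, and the median log2 difference was 0.40. *CCN1* was not called without SB431542 library 1 or 2 or WT library 2, and *TNC* without SB431542 library 1 or 2 or WT library 1 or 2 (adjusted p = 0.0577 to 0.0993). The count was 2 with no filter. *SPARC*, the most abundant member, did not separate the groups (374, 283 and 338 FPKM in WT; 342, 311 and 347 FPKM with SB431542).

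Of 17 tested genes of collagens, laminins and fibronectin, 5 were called higher and 0 lower, with a median log2 difference of 0.49. *COL18A1*, a basement membrane collagen, was at 4.63, 11.01 and 20.2 FPKM in WT and 118, 91.5 and 51.2 FPKM with SB431542. *COL2A1*, the fibrillar collagen of cartilage and notochord, was at 2.37, 3.58 and 5.67 and 50.0, 57.9 and 14.3 FPKM. The laminin chains *LAMB1* (2.60, 2.55 and 2.97; 14.1, 28.5 and 6.49 FPKM) and *LAMA5* (0.549, 0.899 and 0.318; 2.63, 3.78 and 1.38 FPKM) and the linker nidogen, *NID1* (1.09, 0.536 and 1.31; 4.92, 4.96 and 2.53 FPKM), were the other called members. In all 5, library 3 was the lowest treated library. The count of called members fell to 0 with no filter and without SB431542 library 1, SB431542 library 2 or WT library 2. It fell to 1 without WT library 1, and to 3 without WT library 3 or with the library number as a block. *LAMC1* (20.3, 20.0 and 23.5; 31.7, 39.1 and 24.3 FPKM), *LAMB2* (39.1, 36.0 and 69.4; 47.1, 73.8 and 80.1 FPKM) and *COL4A2* (25.0, 48.1 and 26.8; 25.9, 34.3 and 19.3 FPKM) were not called.

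Immediate-early genes, which are switched on within minutes of a stimulus without new protein synthesis, were higher in most members. Of 16 tested, 9 were called higher and 0 lower, with a median log2 difference of 1.77, the highest median among the 28 lists. *NR4A1*, an orphan nuclear receptor, was at 6.96, 2.59 and 3.39 FPKM in WT and 58.5, 50.5 and 53.02 FPKM with SB431542 (log2 difference 3.46 ± 0.27, adjusted p = 0.00213). *ARC*, a cytoskeletal regulator best known from synapses, was at 0.454, 0.330 and 0.0381 FPKM in WT and 4.98, 11.9 and 24.6 FPKM with SB431542 (log2 difference 3.32 ± 0.47). *EGR3*, a zinc finger factor, was at 1.16, 0.163 and 0.0966 and 6.41, 14.8 and 15.6 FPKM (log2 difference 3.15). In all 3 the WT library with the highest value was library 1, and the treated libraries stayed above it. Untreated knock-in libraries had 8.74, 21.2 and 32.9 FPKM of *ARC* and 10.1, 23.9 and 15.1 FPKM of *EGR3*. Both ranges overlapped with those of SB431542.

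Among AP-1 factors, *FOSB* (1.79, 0.0857 and 0 FPKM in WT; 7.89, 8.67 and 14.8 FPKM with SB431542), *FOSL2* (0.361, 0.661 and 0.352; 5.51, 6.18 and 5.06 FPKM), *JUN* (33.9, 17.05 and 34.4; 105, 111 and 122.5 FPKM) and *ATF3* (4.71, 1.45 and 1.99; 20.4, 43.8 and 17.1 FPKM) were called, with log2 differences of 2.94, 2.18, 2.01 and 2.90. *NR4A3* (4.41, 2.65 and 4.57; 12.3, 12.7 and 13.2 FPKM) and *IER2* (54.4, 20.4 and 16.3; 110.3, 138 and 125 FPKM) were the other called members. *IER2* was not called without SB431542 library 1, 2 or 3 or WT library 2 (adjusted p = 0.0510 to 0.0777). Untreated knock-in libraries had 13.6, 20.3 and 14.9 FPKM of *FOSB* and 5.29, 5.11 and 4.57 FPKM of *FOSL2*. They had 109, 137 and 118 FPKM of *JUN* and 15.7, 31.2 and 12.7 FPKM of *ATF3*. Each of these ranges overlapped with that of SB431542. *FOSB* was called in all 6 leave-one-out fits, but not in every setting, as its highest limma adjusted p over the settings was 0.0571. *EGR1* and *FOS*, the best known of the group, were not called. *EGR1* was at 183, 64.6 and 13.99 FPKM in WT and 53.4, 69.1 and 117 FPKM with SB431542, and *FOS*, named after its values were seen, at 51.0, 13.6 and 3.50 and 37.9, 51.0 and 38.0 FPKM. For both, WT library 1 was well above the other WT libraries and the groups overlapped. *MYC* was at 335, 206 and 275 FPKM in WT and 192, 182 and 225 FPKM with SB431542 (log2 difference -0.42, adjusted p = 0.176). *NAB2*, a co-repressor that EGR factors induce and that in turn holds them in check, was at 5.91, 11.13 and 10.7 FPKM in WT and 85.8, 91.1 and 107 FPKM with SB431542 (log2 difference 3.26 ± 0.22, adjusted p = 0.00101). Its untreated knock-in libraries had 93.7, 114 and 85.6 FPKM and its Activin A libraries 72.1, 65.0 and 57.9 FPKM.

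Feedback genes of the ERK pathway gave 4 called higher and 0 lower of 13 tested, with a median log2 difference of 0.87. *SPRY4*, an inhibitor of receptor tyrosine kinase signalling, was at 4.14, 3.06 and 3.09 FPKM in WT and 26.6, 24.01 and 31.5 FPKM with SB431542 (log2 difference 2.68 ± 0.16, adjusted p = 0.000684). *DUSP5*, a nuclear phosphatase of ERK, was at 1.07, 0.189 and 0.131 and 6.64, 14.2 and 8.69 FPKM, and *PHLDA1* at 3.12, 2.59 and 3.91 and 17.3, 28.6 and 12.1 FPKM. *DUSP4* (8.40, 8.22 and 7.26; 15.4, 30.2 and 14.95 FPKM) was called too. *DUSP4* was not called without SB431542 library 1 or WT library 1, 2 or 3 (adjusted p = 0.0750 to 0.104), nor without SB431542 library 2, where its log2 difference was 0.85 (adjusted p = 0.0473). *DUSP6*, a cytoplasmic phosphatase of ERK, was called higher without WT library 1 alone (adjusted p = 0.0132). *SPRY2* (21.4, 8.63 and 4.57; 14.1, 21.4 and 15.9 FPKM) and *SPRED2* (11.4, 15.8 and 13.6; 19.7, 17.9 and 15.02 FPKM) overlapped between the groups. *FGF19*, a ligand of FGF receptor 4, was among the 12 largest rises, at 11.9, 7.46 and 13.6 FPKM in WT and 119, 157 and 64.7 FPKM with SB431542 (log2 difference 3.21 ± 0.33, adjusted p = 0.00486). *PDGFB*, a ligand of the receptor that *PDGFRB* encodes and named after its values were seen, was at 0.226, 0.210 and 0.0995 FPKM in WT and 17.3, 6.91 and 5.21 FPKM with SB431542.

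Genes of the Hippo pathway and targets of its effector YAP gave 4 called higher and 0 lower of 15 tested, with a median log2 difference of 0.64. The called genes were the target *CCN1* and 3 pathway members, *AJUBA*, described above, the kinase *LATS2* (5.73, 5.25 and 5.85 FPKM in WT; 19.2, 14.3 and 17.1 FPKM with SB431542) and the YAP partner *TEAD4* (5.43, 5.07 and 5.79; 19.9, 15.3 and 11.98 FPKM). *CCN2*, the standard YAP readout, was at 21.2, 9.55 and 26.3 FPKM in WT and 48.6, 77.2 and 40.5 FPKM with SB431542, with an adjusted p of 0.0503. *AMOTL2* was at 36.0, 13.6 and 16.0 and 50.8, 61.4 and 38.8 FPKM (adjusted p = 0.0668), and *TEAD2* overlapped (40.1, 40.6 and 53.6; 51.9, 45.1 and 47.8 FPKM). In neither *CCN2* nor *AMOTL2* did the groups overlap, and *CCN2* was called higher without WT library 3 (adjusted p = 0.0435) and *AMOTL2* without WT library 1 (adjusted p = 0.0208).

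WNT genes, 16 of 20 tested members of which were higher on average, gave 4 called higher and 0 lower, with a median log2 difference of 0.97. *WNT3*, a ligand of the β-catenin pathway, was at 2.73, 3.40 and 6.64 FPKM in WT and 21.5, 12.3 and 23.5 FPKM with SB431542 (log2 difference 1.96 ± 0.32, adjusted p = 0.0197). *CCND1*, which encodes cyclin D1, was at 44.5, 46.5 and 49.7 FPKM in WT and 106, 105 and 121 FPKM with SB431542, and its libraries varied little within a group. The feedback inhibitors *RNF43* (0.303, 0.273 and 1.33; 4.04, 3.50 and 2.53 FPKM) and *NKD1* (3.67, 5.10 and 14.1; 20.8, 25.0 and 27.4 FPKM) were called too. *WNT3* was not called without SB431542 library 1 or WT library 1 or 2, *RNF43* without SB431542 library 1 or 2 or WT library 1 or 2, and *NKD1* without SB431542 library 1, 2 or 3 or WT library 1 or 2 (adjusted p = 0.0592 to 0.119). Without the filter on low values 1 member was called. *AXIN2*, a further feedback gene, was at 23.5, 34.2 and 46.7 FPKM in WT and 43.5, 76.2 and 59.0 FPKM with SB431542. *WNT3A* (6.22, 3.42 and 18.5; 15.9, 64.3 and 31.8 FPKM) and *RSPO3* (4.72, 7.28 and 28.8; 12.9, 51.2 and 24.7 FPKM) overlapped between the groups, as did *AXIN2*. Without WT library 3 *WNT3A* was called higher (adjusted p = 0.0468). CHIR99021, which activates this pathway, was in the medium of both groups.

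Notch genes moved in both directions, with 3 called higher and 2 lower of 12 tested and a median log2 difference of 0.13. The ligands *DLL1* and *DLL3* were lower. *DLL1* was at 21.7, 18.04 and 19.1 FPKM in WT and 6.60, 3.51 and 9.47 FPKM with SB431542, and *DLL3* at 4.95, 5.27 and 4.90 and 1.03, 1.22 and 1.82 FPKM. The log2 differences were -1.53 and -1.37. *HES1*, a repressor that Notch induces, was higher, at 1.94, 1.79 and 2.04 FPKM in WT and 6.60, 8.94 and 6.20 FPKM with SB431542 (log2 difference 1.48 ± 0.17, adjusted p = 0.00612). *HES4* (9.81, 13.4 and 14.7; 28.4, 31.2 and 32.8 FPKM) and *LFNG*, a glycosyltransferase that modifies Notch receptors (35.3, 40.9 and 53.5; 97.8, 87.9 and 84.7 FPKM), were higher too. *JAG1* (53.3, 60.2 and 41.8; 48.1, 36.4 and 59.9 FPKM) and *HES5* (13.5, 37.6 and 23.6; 18.2, 8.61 and 30.3 FPKM) overlapped between the groups. *DLL1* was not called without SB431542 library 1 or WT library 1, 2 or 3 (adjusted p = 0.0502 to 0.0912). With no filter 1 member was called lower. The difference of *LFNG* was 0.93 without WT library 1, and its adjusted p was 0.0604 without SB431542 library 1. Beside these, *HES1* was at 10.2, 16.0 and 18.8 FPKM in untreated knock-in and 43.9, 75.4 and 62.9 FPKM in Activin A libraries.

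Genes of the LIF and STAT3 pathway gave 2 called higher and 1 lower of 14 tested, with a median log2 difference of 0.0046. LIF was in the WT medium and not in that of the treatments, and its part in the values below was not tested. *STAT3*, the transcription factor of the pathway, was at 10.2, 9.24 and 7.32 FPKM in WT and 4.15, 2.82 and 4.54 FPKM with SB431542, a log2 difference of -1.04 ± 0.19 (adjusted p = 0.0278). The kinases *PIM1* (16.4, 7.87 and 11.2; 45.2, 73.0 and 34.5 FPKM) and *PIM3* (2.38, 1.97 and 2.56; 8.61, 15.5 and 9.69 FPKM), which STAT3 can induce, were higher. *STAT3* was not called without SB431542 library 1 or 2 or WT library 1 or 2, and *PIM1* without SB431542 library 1 or WT library 2 (adjusted p = 0.0506 to 0.0897). With no filter on low values, or with the library number as a block, 0 members were called lower. The co-receptor *IL6ST* (16.5, 20.5 and 19.6; 13.5, 10.998 and 12.8 FPKM; adjusted p = 0.0479) and the kinase *JAK1* (13.5, 9.82 and 13.3; 4.95, 5.27 and 8.85 FPKM; adjusted p = 0.0612) were lower in each treated library than in any WT library but were not called. *JAK1* was called lower without SB431542 library 3 (adjusted p = 0.0311). Untreated knock-in libraries had 12.8, 12.5 and 13.2 FPKM of *IL6ST* and 8.02, 6.08 and 9.01 FPKM of *JAK1*. For both genes these values were below every WT value and overlapped with those of SB431542.

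Of 10 tested genes of simple epithelium, *KRT8*, a keratin, was called higher and 0 were called lower. *KRT8* had the largest rise of all called genes and was at 7.51, 3.34 and 8.496 FPKM in WT and 200.1, 835 and 90.4 FPKM with SB431542 (chr5:18172423-18180277). All treated libraries were above WT, library 2 far above the other two, and the log2 difference was 5.14 ± 0.73 (adjusted p = 0.0125). Untreated knock-in libraries had 96.7, 428 and 44.3 FPKM and Activin A libraries 100.04, 334 and 35.3 FPKM, again with library 2 the highest. Its partner *KRT18* was at 1.74, 0.607 and 1.83 FPKM in WT and 9.87, 68.8 and 6.81 FPKM with SB431542, and its adjusted p was 0.0585. *CDH1*, E-cadherin, was at 1.97, 1.64 and 1.05 and 5.30, 16.9 and 3.20 FPKM (adjusted p = 0.0834). *KRT18* was called higher without SB431542 library 2 (log2 difference 1.99, adjusted p = 0.0316) or 3 (adjusted p = 0.0460), *CDH1* without SB431542 library 3 (adjusted p = 0.0489), and the count of called members was 2 with a pseudocount of 0.1. The median log2 difference of the 10 was 0.57. *CLDN6*, a claudin of early embryos (54.1, 56.1 and 93.2; 100.04, 137 and 76.8 FPKM), and *TJP1*, a tight junction scaffold (64.0, 64.2 and 86.6; 109.6, 109 and 90.4 FPKM), were the most abundant members after *KRT8* and were not called.

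*F3*, tissue factor, the starter of extrinsic clotting, and *PKDCC*, a secreted tyrosine kinase, were also highest in SB431542 library 2. *F3* was at 2.11, 0.994 and 1.65 FPKM in WT and 13.9, 89.3 and 16.1 FPKM with SB431542 (log2 difference 3.48 ± 0.63, adjusted p = 0.0256). *PKDCC* was at 1.65, 2.83 and 2.67 FPKM in WT and 22.2, 98.8 and 19.2 FPKM with SB431542 (log2 difference 3.43 ± 0.56, adjusted p = 0.0193). In both, the lowest treated library was still several times above the highest WT library. *PKDCC* was at 14.99, 44.9 and 10.6 FPKM in untreated knock-in and 7.75, 18.7 and 5.29 FPKM in Activin A libraries. At every library number the SB431542 value of *PKDCC* was the highest of the 3 conditions. *F3* and *PKDCC* were not called without WT library 1 or 2 (adjusted p = 0.0546 to 0.0756).

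Of 6 tested trophectoderm factors, *TEAD4*, given above, and *TFAP2A*, an AP-2 factor (4.72, 5.43 and 6.38 FPKM in WT; 12.4, 23.2 and 17.9 FPKM with SB431542; log2 difference 1.501 ± 0.22), were called higher, and 0 were called lower. The median log2 difference was 1.07. *TFAP2A* was not called without WT library 1 (adjusted p = 0.0532). *GATA2* was at 3.96, 2.17 and 1.97 FPKM in WT and 2.15, 10.8 and 4.74 FPKM with SB431542, with overlap (adjusted p = 0.331). *CDX2*, which defines the trophectoderm in mouse, was listed at 0 in all 6 libraries.

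The genes below were chosen among the called falls, so their share of neural genes says nothing of all lower genes. *MAB21L2*, a gene of the developing eye and midbrain, fell most, from 53.02, 25.8 and 39.6 FPKM in WT to 0.957, 0.835 and 2.74 FPKM with SB431542 (chr8:78385176-78388008). The ranges were far apart and the log2 difference was -4.03 ± 0.34 (adjusted p = 0.00213). *PPP2R2C*, a regulatory subunit of protein phosphatase 2A found mainly in brain, was at 18.98, 10.7 and 5.16 FPKM in WT and 0.198, 0.195 and 0.697 FPKM with SB431542 (log2 difference -3.07 ± 0.40).

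The synaptic genes *CBLN1* (113, 58.5 and 88.4 FPKM in WT; 9.74, 6.66 and 30.2 FPKM with SB431542) and *CPLX2* (76.2, 68.8 and 47.6; 9.23, 6.02 and 16.98 FPKM), the kinase *PAK3* (94.9, 42.6 and 38.9; 10.8, 6.61 and 11.8 FPKM), the myelin gene *MBP* (13.1, 4.58 and 3.53; 0.0998, 0.124 and 0.940 FPKM) and the HMG-box factor *TOX* (17.1, 10.2 and 6.08; 0.419, 0.446 and 2.15 FPKM) were among the 12 largest falls, with log2 differences of -2.63, -2.55, -2.39, -2.41 and -2.60. In all of these but *PAK3* library 3 was clearly the highest treated library, and in *PAK3* it was the highest by a small margin. *CBLN1* was not called without SB431542 library 1 or 2 or WT library 1, 2 or 3, *TOX* without SB431542 library 1 or 2 or WT library 1 or 2, and *MBP* without SB431542 library 1 or 2 or WT library 2 (adjusted p = 0.0529 to 0.103). The other large falls were those of *COL11A2*, a minor fibrillar collagen chain (10.9, 5.72 and 3.74; 0.349, 0.245 and 1.15 FPKM), *TNIP3* (2.28, 6.79 and 4.43; 0.139, 0.0367 and 0.125 FPKM) and the 2 small RNA genes RF01876 (43.3, 28.4 and 32.95; 5.28, 3.99 and 9.70 FPKM) and RF01877 (45.1, 32.6 and 27.1; 5.52, 3.89 and 7.86 FPKM). *COL11A2* was not called without SB431542 library 1 or 2 or WT library 2 (adjusted p = 0.0531 to 0.0733). FPKM of such short genes is uncertain, since similar copies may share reads and oligo(dT) libraries are not made for them.

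Further called genes were named after their values were seen. *DCX*, doublecortin of migrating neurons, was at 16.0, 18.6 and 15.8 FPKM in WT and 3.12, 3.40 and 4.88 FPKM with SB431542 (log2 difference -1.90 ± 0.17, adjusted p = 0.00278). *STMN2*, a tubulin-binding protein of axons, was at 283, 231 and 197 FPKM in WT and 56.8, 90.7 and 83.8 FPKM with SB431542, the most abundant of this group. *GAP43*, of growth cones, was at 37.7, 31.0 and 29.5 and 5.88, 6.22 and 11.8 FPKM. *NEUROD4* (16.9, 33.1 and 17.6; 3.86, 2.40 and 7.29 FPKM), *BCL11A* (17.3, 11.5 and 13.3; 3.05, 1.22 and 5.72 FPKM), *CNTN2* (21.3, 10.7 and 8.94; 1.99, 2.77 and 4.63 FPKM) and *SOX9*, of cartilage, neural crest and glia (12.8, 12.1 and 12.7; 1.91, 1.56 and 5.34 FPKM) were called lower as well. *NEUROD4*, *CNTN2* and *SOX9* were not called without SB431542 library 1 or 2 or WT library 1 or 2, and *BCL11A* without SB431542 library 1 or WT library 1, 2 or 3 (adjusted p = 0.0559 to 0.107). Untreated knock-in libraries had 4.58, 4.04 and 8.57 FPKM of *DCX*, 121, 113 and 132 FPKM of *STMN2* and 0.664, 0.419 and 3.98 FPKM of *MAB21L2*. For *MAB21L2* these values overlapped with SB431542, and for *STMN2* every untreated value lay between the 2 compared groups.

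**Figure D4:**
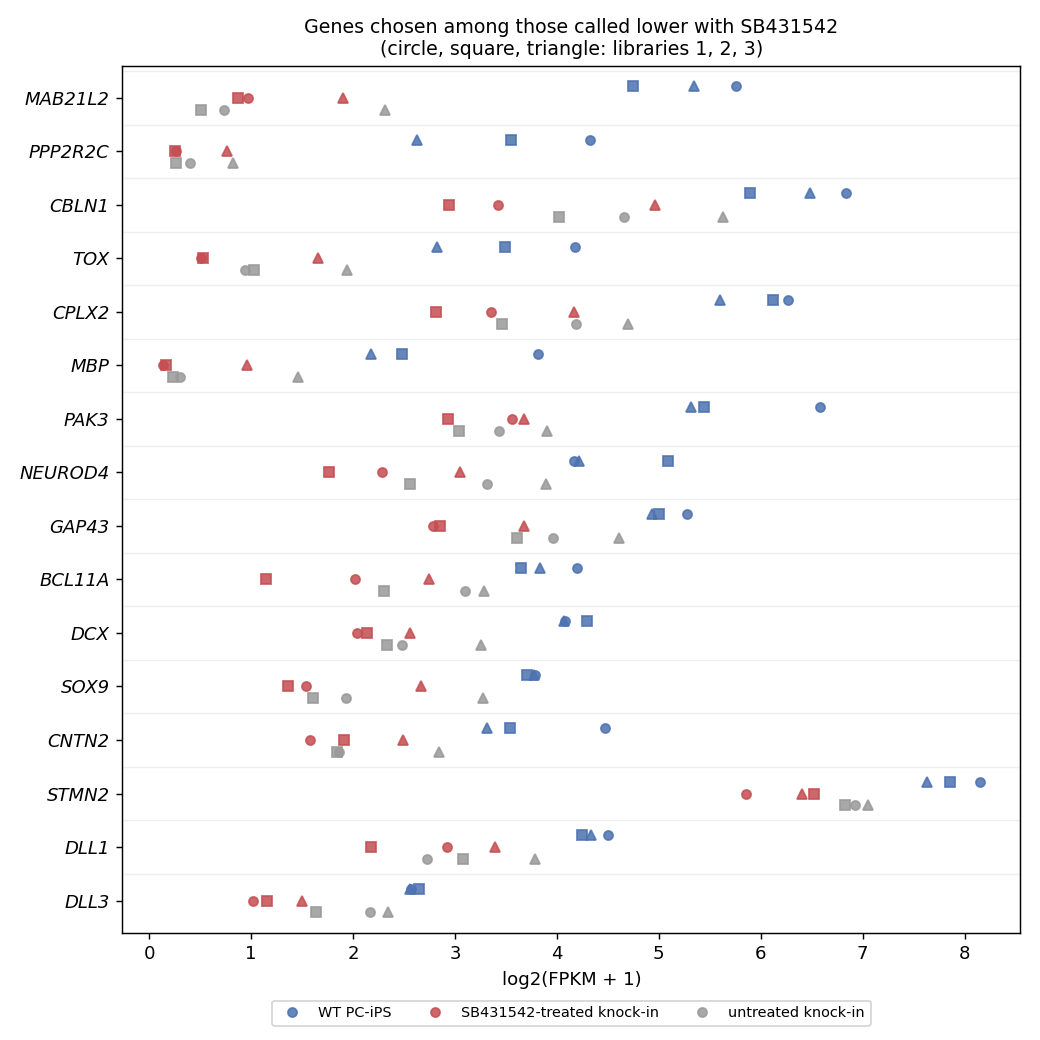
log2(FPKM + 1) of 16 genes chosen among those called lower in WT PC-iPS (blue), SB431542-treated (red) and untreated knock-in (grey) libraries, 3 each, with a marker shape for each library number. Red points lie left of all blue points in every row, and grey points lie mostly at or to the right of the red points.

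Of 15 tested neural ectoderm factors 1 was called lower, *MAB21L2*, 0 were called higher, and the median log2 difference was -0.19. *NES*, nestin of neural precursors, was higher with SB431542 (65.8, 86.3 and 82.2 FPKM in WT; 113, 139.8 and 136 FPKM; adjusted p = 0.027) but below the fold threshold. *ZIC1*, a zinc finger factor of the neural plate, overlapped (67.9, 57.5 and 113; 50.3, 59.5 and 79.7 FPKM), as *OTX2* did. *PAX6*, a paired-box factor of the neural plate and eye, was at 14.1, 26.8 and 8.96 FPKM in WT and 1.75, 6.52 and 5.28 FPKM with SB431542, without overlap (log2 difference -1.67, adjusted p = 0.0723), and 2 members were called lower with all 12 libraries in the fit. *TUBB3*, the neuronal tubulin, was at 88.6, 99.1 and 78.0 FPKM in WT and 27.7, 35.9 and 67.1 FPKM with SB431542, with an adjusted p of 0.0639. Without SB431542 library 3 it was called lower (log2 difference -1.45, adjusted p = 0.0106), and without WT library 3 *OTX1*, a homeobox factor of the forebrain, was called higher (log2 difference 1.72, adjusted p = 0.042). No mesendoderm factor was called among 5 tested, apart from *LHX1*, lower without SB431542 library 3 (log2 difference -1.17, adjusted p = 0.0327), and *GATA6*, the most abundant, was at 8.98, 6.65 and 6.32 FPKM in WT and 15.04, 7.37 and 11.01 FPKM with SB431542.

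*TOPORS*, a ubiquitin and SUMO ligase, was named after its values were seen. It was at 11.3, 9.67 and 7.26 FPKM in WT and 2.02, 1.43 and 1.19 FPKM with SB431542. In untreated knock-in libraries it was at 1.40, 13.5 and 7.64 FPKM, so libraries 2 and 3 were near WT and library 1 near the treated level.

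Of 13 tested p53 targets, 4 were called higher and 0 lower: *CDKN1A*, the p21 inhibitor of cyclin-dependent kinases (10.46, 9.78 and 6.23 FPKM in WT; 28.2, 28.9 and 17.2 FPKM with SB431542), *BBC3* (2.64, 4.55 and 3.53; 12.9, 11.4 and 8.77 FPKM), *PHLDA3* (14.8, 21.97 and 15.7; 56.3, 53.4 and 39.8 FPKM) and *GADD45A* (2.52, 1.92 and 4.28; 11.96, 41.6 and 9.63 FPKM). *CDKN1A* was not called without SB431542 library 1 or 2 or WT library 1 or 2, *BBC3* without SB431542 library 1 or 2, and *GADD45A* without SB431542 library 1 or WT library 1, 2 or 3 (adjusted p = 0.0540 to 0.120). The count was 2 with no filter. The most abundant member, *CCNG1*, overlapped (288, 344 and 189.8; 205, 235 and 214 FPKM), and the median log2 difference of the list was 0.17. Of 14 tested stress genes *CHAC1*, a glutathione-degrading enzyme, was called (2.97, 0.691 and 4.47; 17.3, 22.1 and 11.6 FPKM), and *ATF4* was higher below the fold threshold (218, 157 and 169; 316, 349 and 263 FPKM; adjusted p = 0.034). *CHAC1* was not called without SB431542 library 1 or 2 or WT library 1 (adjusted p = 0.0688 to 0.0908). No stress gene was called with no filter. Without SB431542 library 3 the serine synthesis enzymes *PSAT1* (adjusted p = 0.0147) and *PHGDH* (adjusted p = 0.0389) were called higher. Among 14 tested cell cycle genes *CCND1* and *CDKN1A* were called, 1 of them with no filter, while *TOP2A* (124, 150.3 and 112; 126, 107 and 115 FPKM) and *CCNB1* (60.0, 54.1 and 42.5; 49.1, 50.6 and 44.4 FPKM), which are expressed in dividing cells, overlapped. *VEGFA*, a hypoxia-responsive growth factor, was the 1 called gene of 20 tested for glycolysis and hypoxia (14.2, 10.1 and 10.49; 33.6, 29.8 and 24.3 FPKM), joined by *ALDOC* without SB431542 library 2 (adjusted p = 0.033), and *GAPDH* was at 1408, 1295 and 1350.4 FPKM in WT and 1702, 1712 and 1666 FPKM with SB431542. None of 8 tested DNA methylation genes was called, *DNMT3B*, the de novo enzyme of the epiblast, being at 33.9, 23.2 and 24.8 FPKM in WT and 18.04, 18.5 and 23.997 FPKM with SB431542.

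All 13 mitochondrially encoded genes were lower on average with SB431542, with a median log2 difference of -0.53 and 0 called. *COX1*, a subunit of cytochrome c oxidase, differed most, by -0.87 ± 0.16 (adjusted p = 0.0285). Removing these genes before scaling left 245 genes called higher and 158 lower.

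**Figure D5:**
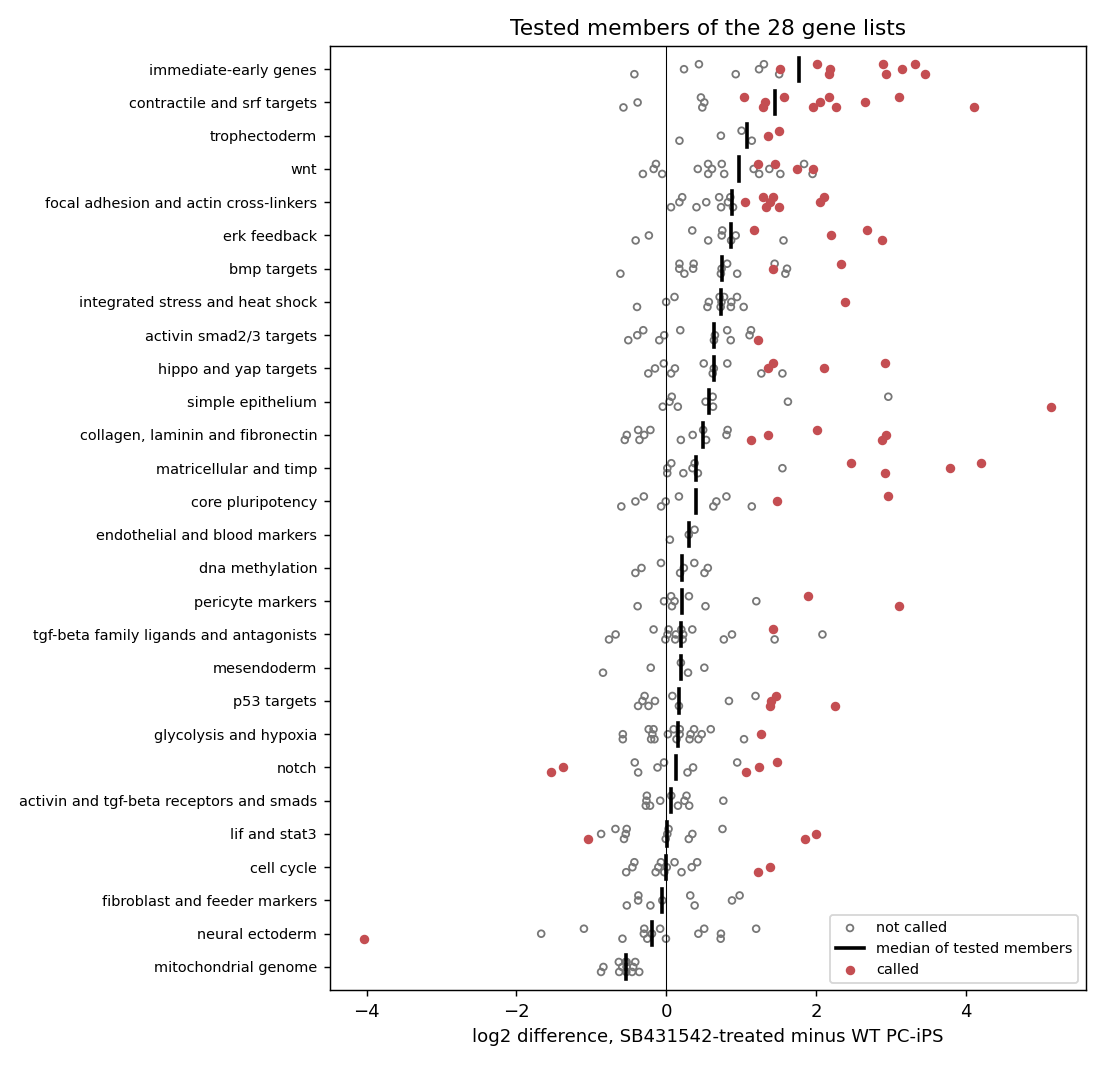
Log2 difference between SB431542-treated and WT PC-iPS libraries for each tested member of the 28 gene lists, with called genes filled, genes not called open, and the median of each list as a bar. Immediate-early and contractile genes have the highest medians, 1.77 and 1.45, and mitochondrially encoded genes the lowest, -0.53.

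Some differences among the SB431542 libraries recurred under the same numbers in the other table. Deviations of each library from its group mean, over 14072 genes, correlated at 0.513, 0.636 and 0.573 between SB431542 and untreated knock-in libraries of the same number, and between -0.484 and -0.173 for different numbers. Genes are not independent replicates, so this is a description. Deviations within a group cancel for each gene, so the negative values are not independent of the positive ones. *KRT8*, *F3* and *LIN28A* were each highest in library 2 in all 3 knock-in groups. The labels do not say whether a treated library came from the knock-in line of the same number.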

How the data were processed

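RNA-seq was done on pig PC-iPS cells after feeder cells had been left behind by a 1 h plating step, with oligo(dT) libraries. Per the labels and the study's methods, the authors' pipeline was adapter trimming (Trim Galore), alignment (HISAT2 2.0.4; build Ssc11.1) and gene quantification (StringTie 1.3.3); bcl2fastq 2.17.1.14, featureCounts 1.6.4 and DESeq2 are named too, for base calling and for the authors' own tests of read counts, which were not used here. The deposited values are FPKM per gene, in a pair of tables with 24358 genes each, both holding the same identifiers. The tables named 17451 genes and a reference list of names another 965, and positions came from RefSeq by symbol. Strandedness is not given in the sources used here, so overlapping and antisense genes may share reads.

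A gene was tested if 3 of the 6 libraries reached 0.1 FPKM, which left 14072. After adding 1 and taking log2, limma 3.58.1 with a variance trend was run in R 4.3.3, 3 SB431542 against 3 WT PC-iPS libraries, unpaired. A fold change on the log2(FPKM + 1) scale understates the change of low genes. Calls needed a log2 difference of 1 or more in size and, after Benjamini-Hochberg adjustment over all tested genes, a p no higher than 0.05. Tests were two-sided, and p-values assume that the libraries are independent. On simulated data with 200 changed genes among 14072, 176 were recovered with 1 false call at a log2 change of 1.5, and 195 with 5 false calls at 2. The changed genes were drawn from the more abundant ones, and the noise was normal and independent between genes and libraries. Recovery of low genes, and errors from shifts that many genes of a library share, were not tested. Tables were handled in Python 3.11.15 with pandas 2.3.3 and numpy 2.4.6, and plots drawn with matplotlib 3.10.9.

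Genes named are the 12 largest called rises and falls with a symbol and without overlap between groups, *NANOG*, 16 genes that the study names, and, in each of 28 lists, called members and up to 4 of the most abundant; others are given for a call that changed with a setting, as absent or low markers, or as named after their values were seen. The members and lists were chosen with earlier results of these data known. Of 408 listed genes, 385 had an identifier. A pair of called genes is not reported here, 1 of them among the 12 largest falls; the counts over all tested genes include both, and the lists neither. Alternatives tried were other pseudocounts, filters and scalings, no variance trend, all 12 libraries in the fit, a block for the library number and leaving out each library.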

Additional observations from a re-analysis of the deposited data

How the results depend on the processing

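The counts of called genes, 258 higher and 134 lower, depended on the filter and on single libraries. With no filter on low values, 153 were higher and 63 lower among more tested genes. With a pseudocount of 0.1 or 0.01, 247 or 226 were lower. With TPM, which was 1 added to larger values, 208 were lower. With the adjusted p alone, 617 were higher and 372 lower. Leaving out 1 library gave 140 to 292 higher and 47 to 160 lower: without WT library 1, 151 and 60; without SB431542 library 1, 140 and 47; without SB431542 library 2, 157 and 56. Without WT library 2, 169 were higher. Other scalings moved neither count by over 1.5 times and shifted the median gene by at most 0.048 on the log2 scale. The *NANOG* difference of -0.07 ranged from -0.45 to 0.29 when 1 library was left out; it was 0.29 without WT library 3, and 0.12 without SB431542 library 1 or 3. *SMAD7* ranged from -0.19 to 0.021 in the same fits and was above 0 without WT library 1 or SB431542 library 2 (0.0001). The cause of these shifts was not tested.

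The labels number libraries 1 to 3 in both groups. With the number as a block, 212 genes were higher and 112 lower. The numbers do not pair the groups: deviations of same-numbered SB431542 and WT libraries correlated at -0.058, -0.061 and 0.000, and SB431542 library 1 correlated best with WT library 2, at 0.131. FPKM keeps no counts, so counting error is unknown, and values under 1 FPKM are the least certain.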
